A study of Mus musculus with 6 samples.

Results

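The ends of DNA breaks were counted in 8 mouse genes of the calcium/calmodulin-dependent kinase (CaM kinase) system, Camk2a, Camk2b, Camk2d, Camk2g, Camk4, Camk1d, Camkk2 and Camkmt. They were chosen by name as 8 of 21755 protein-coding genes on chromosomes 1 to 19 and X, and all 8 were found in the GENCODE annotation of mm10. The data are 6 BLISS libraries of sorted forebrain neurons. BLISS joins adaptors to broken DNA ends inside fixed nuclei and sequences outward from them, so each aligned read was counted at its 5′ end, the labelled break end. All 6 libraries carry the genotype CK-p25 and 2 weeks of induction by taking doxycycline out of the diet, and 2 libraries each are titled Con, Step1 and Step2. What Con, Step1 and Step2 stand for, the age of the mice, and whether replicates were separate animals are not given in the labels, so p-values reflect the spread among these libraries alone, part of which may be technical. In CK-p25 mice, doxycycline withdrawal switches on a transgene for p25, which activates Cdk5, through a transcriptional driver under the Camk2a promoter. A Camk2a promoter fragment in a transgene and the gene's own promoter align to the same coordinates, so reads from either cannot be told apart.

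CaM kinases carry calcium signals in neurons. Calcium-loaded calmodulin binds the kinase and releases an inhibitory segment from its active site. Camk2a and Camk2b encode the subunits that dominate the CaMKII holoenzyme of forebrain synapses, where it is needed for long-term potentiation, and Camk2d and Camk2g encode the more widely expressed subunits. Camkk2 encodes an upstream kinase that phosphorylates the kinases made from Camk4 and Camk1d, and the Camk4 product acts in the nucleus on the transcription factor CREB. Camkmt encodes the methyltransferase that modifies a lysine of calmodulin and is not a kinase gene. The assay counts DNA ends and no RNA, so the neuron label could not be checked by expression. Starts of marker genes of 6 brain cell classes held 0.183 to 2.12 CPM (reads scaled to library size) per gene, against a mean of 2.57 to 2.92 over all genes. That mean is not the level of a typical gene, as the median gene start held 10 reads over the 6 libraries together. The starts of the 8 members held 0.681 to 1.97 CPM per gene, so these values do not show that marker starts were low.

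Libraries held from 1480461 to 2403238 reads, and both Step2 libraries were shallower than the other 4. The 8 genes together span 1562 kb, which is 0.0610% of the genome. They held 0.0626% ± 0.00573 of reads in Con (SD, n = 2), 0.0602% ± 0.000611 in Step1, then 0.0614% ± 0.00441 in Step2. The members' joint share lay near their share of the genome in every group, and the group means differed by less than the spread between Con libraries. Exact two-sided permutation p-values were 1.0 for Step1 against Con, 0.667 for Step2 against Con and 1.0 for Step2 against Step1. With 2 libraries against 2 the smallest p of that test is 0.333. All values are relative to the reads of their own library and do not count breaks per cell.

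Break ends lay at similar density in all 8 genes. The highest mean over the 6 libraries was that of Camk2d, on chromosome 3 from 126596302 to 126846326, with 0.447 CPM per kb ± 0.0354 (SD, n = 6). Camk2a followed with 0.423 ± 0.0783, Camk2b with 0.418 ± 0.0903 and Camk1d with 0.396 ± 0.0221. Camkk2 had 0.376 ± 0.0805, Camk4 0.369 ± 0.0461, Camkmt 0.367 ± 0.0257 and Camk2g 0.360 ± 0.0364. Neighbours in this order overlapped in their library ranges in every case, so the order of adjacent genes is not resolved. With 1 read per position and strand the order changed. Camk2b then had 0.428 CPM per kb and Camk2d 0.425, and Camk2g, at 0.396, lay above Camkmt at 0.360. The median of 13811 tested genes was 0.393 CPM per kb, with an interquartile range from 0.352 to 0.438. Camk2g stood at the 29.4th percentile of these genes and Camk2d at the 78.3rd. In the plot of density by library the groups overlap in every pair for Camk2b, Camk2d and Camk4, and at least 1 pair of groups is apart for the other 5 genes. The share of all tested genes with at least 1 pair apart was not counted, so this is not a result about the members. Shares for each pair are given below.

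**Figure D1:**
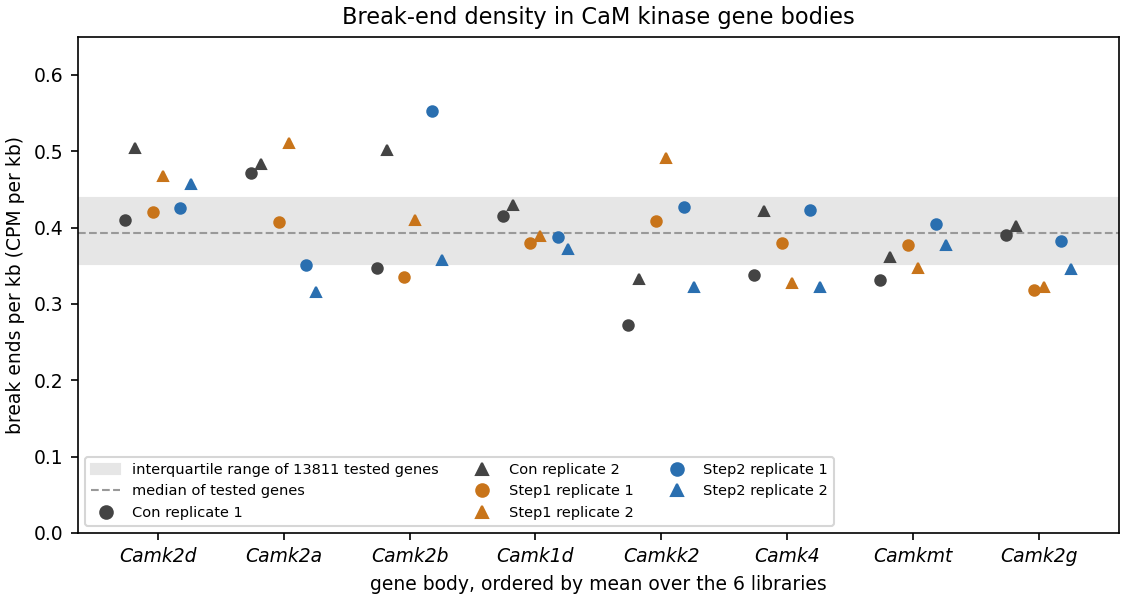
Break-end density in CPM per kb of gene body (vertical axis) in the 8 genes, 1 point per library, coloured by group and shaped by replicate. The grey band spans the interquartile range of tested genes, 0.352 to 0.438 CPM per kb, and the dashed line is their median of 0.393; the Camk2a points of Step2 lie below those of Con and Step1.

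The density of a gene also depends on how much of it is repeated sequence, where a short read has no single place. Of the 32-base words in Camk4, 81.3% occurred once in chromosomes 1 to 19 and X, against 90.1% in Camk1d and 96.9% in Camk2g. Camk4 lies on chromosome 18 from 32934931 to 33191228. Of 10 equal segments of the gene, counted from the start, the fourth held 0 and 1 reads in Con, 1 and 0 in Step1, then 2 and 0 in Step2. The other segments held 75 to 152 reads each over all libraries. In that near-empty segment only 3.57% of words occurred once, and in the fifth, which held 75 reads, 69.1% did. Per kb of words that occur once, Camk4 had 0.453 CPM ± 0.0567 (SD, n = 6), beside 0.450 ± 0.0973 in Camk2b and 0.471 ± 0.0373 in Camk2d. Camk2g, with the least repeated sequence, stayed lowest with all reads, at 0.372 ± 0.0375.

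No member was called in any comparison between groups. Called means an adjusted p under 0.05 in limma's voom fit with Benjamini-Hochberg adjustment over the 13811 tested genes. The background was also small. Between Step1 and Con 17 genes were called, 0.123%, between Step2 and Con 13, 0.0941%, and between Step2 and Step1 6, 0.0434%. With 1 read per position and strand the shares of genes called were 0.118%, 0.126% and 0.0315% in the same order, and without ends directly preceded by CCT, a word described below, 0.0304%, 0.038% and 0.0304%, and again no member was among them. Both comparisons with Con share the Con libraries. Of the 8 members, 6 had lower fitted levels in Step1 than in Con, with a median log2 fold change of −0.08, against 54.7% of all tested genes and a median of −0.04. In Step2 against Con 5 were lower, median −0.04, against 54.0% and −0.04. With median of ratios scaling 3 were lower there, against 49.1% of genes. In Step2 against Step1 4 were lower, median 0.03, against 50.2% and a median within 0.01 of 0.

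**Figure D2:**
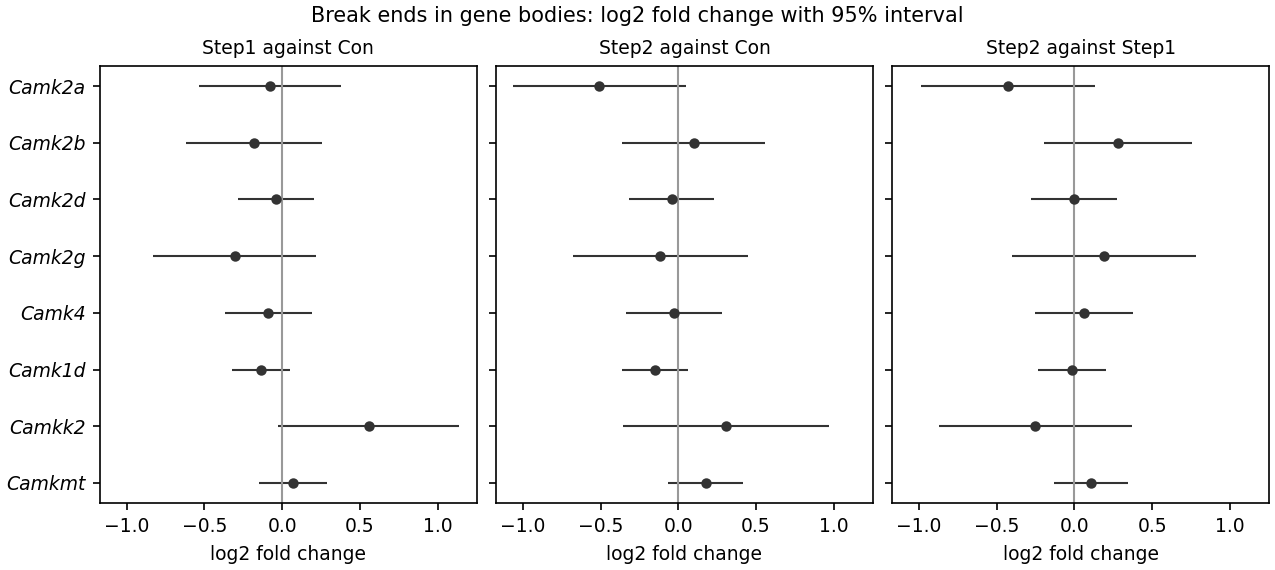
Fitted log2 fold change of break ends in the body of each of the 8 genes (horizontal axis), with its 95% interval, in the 3 comparisons between groups. Every interval crosses 0; the points farthest from 0 are Camkk2 at 0.56 in Step1 against Con and Camk2a at −0.51 in Step2 against Con.

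Camk2a, the gene of the CaMKII alpha subunit on chromosome 18 from 60925618 to 60988152, had its lowest values in Step2. Its body held 65 and 66 reads in Con, 58 and 62 in Step1, then 32 and 28 in Step2, which is 29.5 and 30.2 CPM, 25.4 and 31.9, and 21.9 and 19.8. Both Step2 libraries lay below all 4 others, and Con and Step1 overlapped. The log2 fold change was −0.51 ± 0.27 (SE) in Step2 against Con, with a 95% interval from −1.06 to 0.05 and an adjusted p of 0.682 by limma. Against Step1 it was −0.43 ± 0.28, adjusted p = 0.999. In Step2 against Con the value was nearer 0 when repeated reads were left out. With 1 read per position and strand it was −0.23 ± 0.24 (adjusted p = 0.851, limma). Without the gene's most used position it was −0.31 ± 0.28. In the reads of sequencing run 1 alone it was −1.30 and in run 2 alone −0.05, so the runs differed by more than the value itself.

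Camk2b, the gene of the CaMKII beta subunit on chromosome 11 from 5969644 to 6066362, varied more within groups than between them. It held 74 and 106 reads in Con, 74 and 77 in Step1, then 78 and 49 in Step2. In CPM these were 33.6 and 48.6, 32.5 and 39.7, and 53.5 and 34.6. The Step2 libraries lay far apart. Fitted log2 fold changes were −0.18 ± 0.22 (SE) in Step1 and 0.10 ± 0.23 in Step2, each against Con (adjusted p = 0.899 and 0.948, limma).

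Within Camk2b, reads in exons were most frequent in Con and least in Step2, a pattern picked out after the values were seen and not tested. Exons held 14 of 74 and 16 of 106 reads in Con, 9 of 74 and 5 of 77 in Step1, then 4 of 78 and 0 of 49 in Step2. Exons take up 9.44% of the length of Camk2b. The 0 of 49 allows a share of up to 6.12%. Part of the difference was 1 position near the gene's end, described below. Without it the exon reads were 12 and 10 in Con, 6 and 3 in Step1, then 4 and 0 in Step2, and Step1 and Step2 then overlapped. Camkk2 had the largest exon share of the 8, and its exons held 10 of 29 and 8 of 35 reads in Con, 6 of 45 and 5 of 46 in Step1, then 6 of 30 and 5 of 22 in Step2. Exons are 22.6% of its length.

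Camk2d, the gene of the delta subunit, had similar levels in all groups. It held 226 and 275 reads in Con, 240 and 227 in Step1, then 155 and 162 in Step2, or 103 and 126 CPM, 105 and 117, and 106 and 114. The groups overlapped in each comparison. Its log2 fold change was −0.04 ± 0.12 in Step1 against Con (interval −0.29 to 0.21) and −0.04 ± 0.14 in Step2 against Con (interval −0.32 to 0.23), the latter 0.00 with median of ratios scaling. The high Con library owed 20 of its reads to 1 position.

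Camk2g, the gene of the gamma subunit on chromosome 14 from 20734875 to 20794088, was lower in Step1 than in Con without overlap. It held 51 and 52 reads in Con, 43 and 37 in Step1, then 33 and 29 in Step2, or 23.1 and 23.8 CPM, 18.9 and 19.1, and 22.6 and 20.5. Step2 lay between the other groups. The log2 fold change of Step1 against Con was −0.31 ± 0.26 (adjusted p = 0.838, limma), and that of Step2 against Con was −0.12 ± 0.28. Of the 18 reads of Con replicate 2 that followed the bases CCT, 6 sat at 1 position. Without ends preceded by CCT the Step1 value was −0.09 ± 0.28. It turned to 0.45 in sequencing run 1 alone and was −0.80 in run 2.

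Camk1d, the gene of a CaM kinase I isoform on chromosome 2 from 5293457 to 5714515, is the longest of the 8 and the most precisely measured. It held 385 and 395 reads in Con, 365 and 318 in Step1, then 238 and 222 in Step2, or 175 and 181 CPM, 160 and 164, and 163 and 157. Con lay above both other groups. The differences were small, −0.14 ± 0.09 in Step1 against Con (interval −0.32 to 0.05) and −0.15 ± 0.11 in Step2 against Con (interval −0.36 to 0.06), with adjusted p of 0.789 and 0.771 by limma. Step2 and Step1 differed by −0.02 ± 0.11.

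Camk4 held 191 and 236 reads in Con, 222 and 163 in Step1, then 158 and 117 in Step2, or 86.7 and 108 CPM, 97.3 and 84.0, and 108 and 82.5. All 3 groups overlapped. The log2 fold changes were −0.09 ± 0.14 in Step1 and −0.03 ± 0.15 in Step2 against Con, the latter turning to 0.02 with median of ratios scaling.

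Camkk2, on chromosome 5 from 122731170 to 122779409, was the member farthest above Con. Its body held 29 and 35 reads in Con, 45 and 46 in Step1, then 30 and 22 in Step2, or 13.2 and 16.0 CPM, 19.7 and 23.7, and 20.6 and 15.5. Both Step1 libraries lay above both Con libraries, and Step2 overlapped each group. The log2 fold change of Step1 against Con was 0.56 ± 0.29, with an interval from −0.02 to 1.14 and an adjusted p of 0.712 by limma. The value was 0.17 ± 0.26 with 1 read per position and strand, and 0.39 ± 0.30 without the most used position, which gave 9 of the 45 reads of Step1 replicate 1.

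Camkmt, on chromosome 17 from 85090552 to 85458588, was higher in Step2 than in Con without overlap. It held 269 and 290 reads in Con, 317 and 248 in Step1, then 217 and 197 in Step2, or 122 and 133 CPM, 139 and 128, and 149 and 139. Step1 overlapped Con. The log2 fold change of Step2 against Con was 0.18 ± 0.12 (interval −0.06 to 0.42, adjusted p = 0.754, limma). It was 0.08 without ends preceded by CCT and also in sequencing run 1 alone.

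Counts of members whose libraries did not overlap were read against all tested genes. In Step1 against Con Camk2g and Camk1d were lower, as were 21.3% of tested genes, and Camkk2 was higher, as were 15.4%. In Step2 against Con Camk2a, Camk2g and Camk1d were lower (21.7% of tested genes) and Camkmt was higher (15.2%). In Step2 against Step1 Camk2a was lower (17.9%) and Camk2g higher (16.1%). With 8 genes, shares this near the background are not a result about the members.

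The 10 kb before the Camk2a start stood apart from those of most genes in every library. They held 16 and 32 reads in Con, 21 and 23 in Step1, then 17 and 20 in Step2, or 0.726 and 1.47 CPM per kb, 0.921 and 1.18, and 1.17 and 1.41. The mean was 1.15 CPM per kb ± 0.283 (SD, n = 6), and the median over 21755 genes was 0.392. Of these genes 192, 0.883%, had an upstream window at or above that of Camk2a. With 1 read per position and strand 57 genes did, 0.262%. The window was dense in each group, and every pair of groups overlapped.

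The excess before Camk2a had an edge about 8 kb from the gene start, a boundary picked out after the profile was seen. The 1 kb bins from 16 to 8 kb before the start held 0 to 8 reads each over all libraries, 0 in the last of them. The 8 bins from there to the start held 19, 12, 12, 12, 18, 11, 13 and 27 reads. The first 8 kb of the gene body then held 3 to 12 reads per bin. From 1 to 8 kb before the start, which leaves out the kb next to the start, the libraries held 14 and 25 reads in Con, 11 and 17 in Step1, then 15 and 15 in Step2. That is 1.24 CPM per kb ± 0.373 (SD, n = 6) against a median of 0.366 over genes, and 63 genes, 0.290%, were at or above it. The window was drawn from the profile of Camk2a itself and not from those of the other genes, so this rank describes it and is no test. The window from 9 to 16 kb before the start held 0.316 ± 0.129 CPM per kb against a median of 0.364. The densest single value was Step1 replicate 2 in the bin next to the edge, as the profile by group shows. All of the 16 kb is nearly free of repeats, with 98.3% of its 32-base words occurring once. Beyond about 7 kb the window overlaps the end of the neighbouring gene Arsi, which encodes an arylsulfatase.

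**Figure D3:**
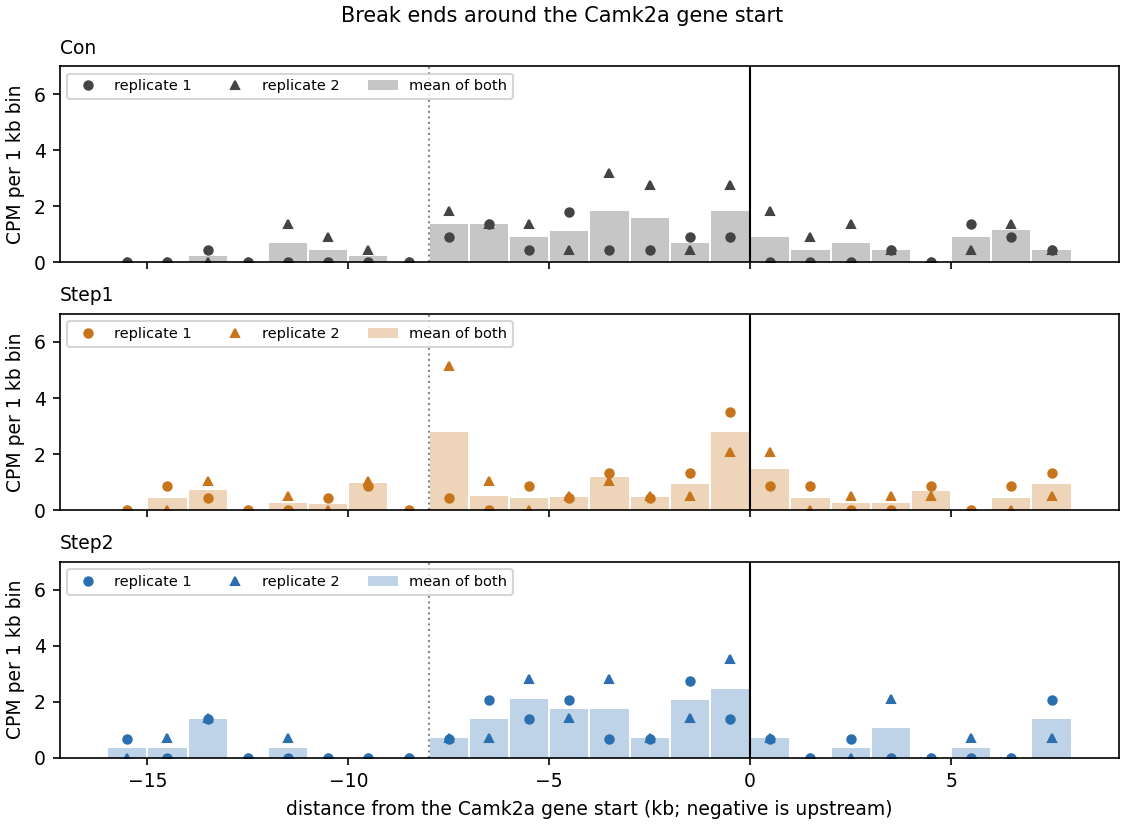
Break ends in 1 kb bins around the Camk2a start (horizontal axis, kb, negative is upstream) in CPM per bin, with a panel for each group, points for replicates and bars for their mean. The solid line marks the gene start and the dotted line 8 kb before it; the 8 bins between the lines together hold more reads than the 8 to the left of the dotted line in each of the 6 libraries, while single bins overlap.

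Against its own body, the 10 kb before Camk2a were 2.59 times as dense over all libraries, from 1.54 in Con replicate 1 to 4.47 in Step2 replicate 2. The median ratio over the 3482 genes of at least 40 kb that were compared was 1.22, and 2.41% of these had a ratio at or above that of Camk2a. They are a part of the genes of that length, as 6066 such gene bodies were tested. The median and the share may differ over all of them. Among the other members the ratio ran from 0.781 in Camk2b to 1.60 in Camk2g. The group means for Camk2a were 2.29 ± 1.06 in Con, 2.29 ± 0.0393 in Step1, then 3.89 ± 0.809 in Step2 (SD, n = 2). Both Step2 libraries lay above the 4 others with all reads (exact two-sided permutation p = 0.333 against Con and against Step1, the smallest this design allows) and when mapping quality had to reach 30. Step2 and Con overlapped in the other 4 settings: with 1 read per position, in either sequencing run alone and without ends preceded by CCT (exact p = 0.667 in each). With 1 read per position Con replicate 2 had a ratio of 3.83 and Step2 replicate 1 one of 3.33, and in run 1 alone the Step2 libraries lay at 1.44 and 10.4.

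Upstream windows were fitted for 5 of the 8 members, and none of these was called in any comparison. Among 11166 windows tested 3 were called in Step1 against Con, 0.0269%, 6 in Step2 against Con, 0.0537%, and 1 in Step2 against Step1, 0.00896%. For the window before Camk2a the log2 fold changes were 0.02 ± 0.46 in Step1, then 0.32 ± 0.46 in Step2 against Con, with an interval from −0.61 to 1.25 in the latter. The window before Camk4 held 8 and 10 reads in Con, 7 and 4 in Step1, then 10 and 17 in Step2. Its log2 fold change of Step2 against Con was 1.13 ± 0.48 (unadjusted p = 0.0236, adjusted p = 0.945, limma). The windows before Camk2b, Camk1d and Camkmt had too few reads for the fit, with 37, 38 and 46 in all.

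Within 1 kb of the gene start on either side Camk2a had the most reads of the 8. It held 2 and 10 reads in Con, 10 and 8 in Step1, then 3 and 6 in Step2, which is 3.92 times the density of its body and at the 95.6th percentile of genes. Of these 39 reads 27 lie before the start and are already counted in the upstream window. Camk1d held 2 and 3, 0 and 2, and 8 and 5, so its Step2 libraries were highest although they were the least deeply sequenced. Camk2b held 3 and 8 reads in Con, 1 and 3 in Step1, then 0 and 0 in Step2. Of the Con reads 1 and 4 sat at 1 position, the Camk2b site near the start printed below. The other 5 genes held 6 to 11 reads each over the 6 libraries, near the median of 10 over all genes.

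Most member positions were seen in 1 library only. Of 5667 distinct positions and strands, 54, or 0.953%, had a read in 2 or more libraries and 3 in 4 or more. The most used position of each gene held 1.20% to 7.40% of its reads. A selection of 5 sites is printed here to show the bases around ends that recurred between libraries or piled up in 1. Each sequence reads in the direction of the read, on the strand given, with 30 bases before the break end and 30 from it on, or 15 and 15 for the Camk2b site in an exon outside the coding sequence. Capitals mark the 6 bases directly before the end. The sequences come from the mm10 genome. The first 3 sites recurred between libraries, and the last pair are high in 1 library.
Camk1d intron, chr2:5551233-5551292, plus strand: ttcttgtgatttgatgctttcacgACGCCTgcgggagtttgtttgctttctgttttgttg
Camk2b near the start, chr11:6065811-6065870, plus strand: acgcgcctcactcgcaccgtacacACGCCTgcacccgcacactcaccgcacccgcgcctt
Camk2b near the end, chr11:5970552-5970581, plus strand: cccacagccATATATctctgcccccagcct
Camk2d intron, chr3:126662243-126662302, minus strand: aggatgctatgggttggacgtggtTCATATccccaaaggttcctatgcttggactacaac
Camkmt intron, chr17:85202634-85202693, minus strand: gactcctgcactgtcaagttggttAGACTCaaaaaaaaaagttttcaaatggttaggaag

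The Camk1d site held 9 and 12 reads in Con, 3 and 1 in Step1 and none in either Step2 library. The most used position of Camk2a, in an intron 31.7 kb from the start, had nearly the same pattern, with 8 and 9 reads in Con, 3 and 3 in Step1 and none in Step2. Both were directly preceded by the word ACGCCT. The Camk2b site near the start, with 1 and 4 reads in Con alone, also followed ACGCCT and lies in the RefSeq promoter of that gene (GRCm38.p6, chromosome 11 from 6065699 to 6065998). Of 32851 RefSeq promoters of 300 bases, 8.53% hold ACGCCT on either strand. The Camk2b site near the end held 2 and 6 reads in Con, 3 and 2 in Step1 and none in Step2, and followed ATATAT instead. The Camk2d site held 20 reads, all in Con replicate 2. The Camkmt site held 20 reads in Con replicate 1 and 1 in Con replicate 2. Of 60 member positions with at least 5 reads, 48 were in 1 library alone, and 22 of these were in Con replicate 2, the library with the most reads per position (1.42, against 1.19 to 1.29 in the others).

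The words before the ends of member reads were then counted in every library, with the word read 5′ to 3′ on the strand of the read and both strands pooled. ACGCCT contains CCT, so the longer word is a subset of the shorter. CCT preceded 11.8% ± 1.72 of member reads in Con (SD, n = 2), 10.1% ± 0.540 in Step1, then 10.5% ± 1.37 in Step2, and 1.82% of genome positions. Over all reads it preceded 9.44% ± 0.454, 8.0% ± 0.119 and 8.67% ± 0.430, so the word was frequent before ends outside these genes too. ACGCCT preceded 21 of 1290 and 37 of 1455 member reads in Con, 9 of 1364 and 7 of 1178 in Step1, then 0 of 941 and 0 of 826 in Step2. A count of 0 there allows shares of up to 0.319% and 0.363%. Over all reads the word preceded 0.374% ± 0.169 in Con, 0.0735% ± 0.0107 in Step1, then 0.0416% ± 0.00189 in Step2, and 0.00478% of genome positions. The groups did not overlap, at the smallest p the exact permutation test allows (0.333 for each pair). Over all reads, shares of ends after this word thus moved with the groups. Their part in the members' counts was not tested beyond the fits without CCT ends. The member reads include the most used positions of Camk1d and Camk2a, which the word precedes. Those held 9 and 12 reads, and 8 and 9, in Con and none in Step2. The member counts by group thus partly repeat these sites.

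**Figure D4:**
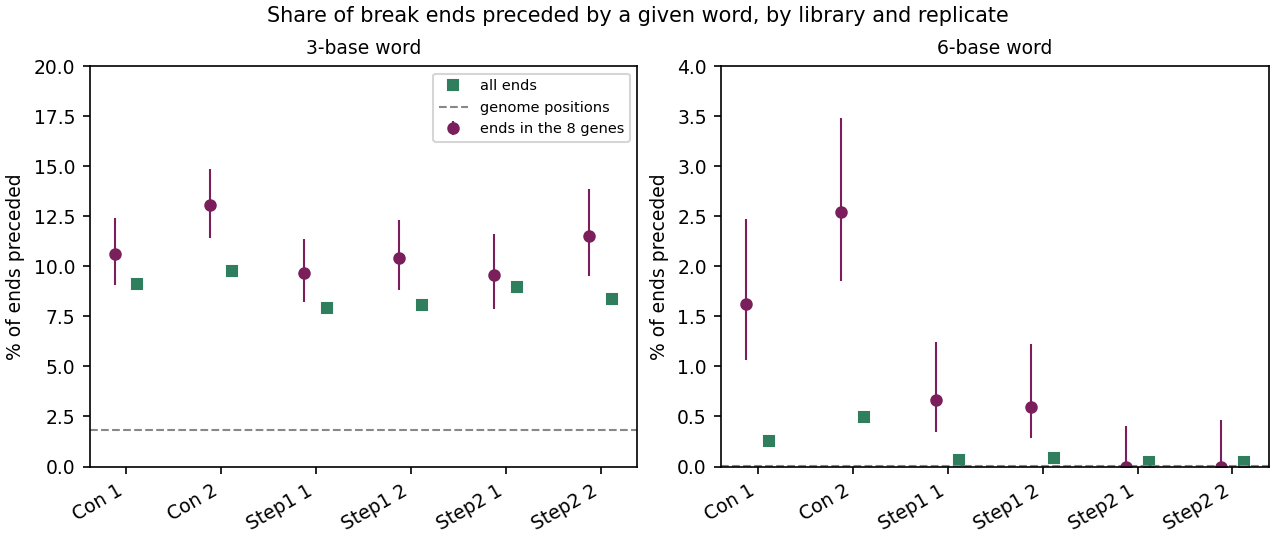
Share of break ends directly preceded by CCT (left panel) and by ACGCCT (right panel) in each library, for ends in the 8 genes (circles, 95% Wilson interval) and for all ends (squares). The dashed line is the share of genome positions; CCT lies above it in every library, and the longer word is most frequent in Con, with 0 member reads in Step2.

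The word preference was unequal among members. CCT preceded 25.4% of the 311 reads of Camk2a, the highest share of the 8, and 7.08% of the 1087 reads of Camk4, the lowest. Camk2g had 16.3%, Camk2b 15.7%, Camkk2 14.5%, Camk1d 11.5%, Camkmt 9.88% and Camk2d 7.39%. The GC content of the genes was ordered much alike, from 50.9% in Camk2a and 52.3% in Camk2b to 40.6% in Camk4 and 40.4% in Camk2d. ACGCCT preceded 23 reads of Camk2a, all at its most used position, 17 of Camk2b and 30 of Camk1d, and at most 2 in each other member. In positions seen in 2 or more libraries CCT came before 37.0%, against 10.1% of those seen in 1. Without ends preceded by CCT the log2 fold change of Camk2a in Step2 against Con was −0.35 ± 0.30 (adjusted p = 0.820, limma), and that of Camkk2 in Step1 against Con was 0.68 ± 0.31 (adjusted p = 0.707).

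No other listed gene of calmodulin signalling was called either. Of 51 genes listed, among them calmodulin genes, calcineurin subunits, other CaM kinases and calmodulin-activated enzymes, 42 were tested and 0 were called by limma. In Step1 against Con 6 of the 42, 14.3%, had an unadjusted p under 0.05, as did 7.08% of all tested genes. In Step2 against Con it was 5, 11.9%, beside 7.77%, and in Step2 against Step1 it was 2, 4.76%, beside 3.42%. The lower genes were 22 of 42 (52.4%), 26 (61.9%) and 25 (59.5%) in these comparisons, and of all tested genes 54.7%, 54.0% and 50.2% were lower. The 3 densest were Pde1b, a calmodulin-activated phosphodiesterase, with 0.645 CPM per kb, Phkg1, the catalytic subunit of phosphorylase kinase in muscle, with 0.624, and Camkk1, the paralog of Camkk2, with 0.535. Pde1b held 35 and 60 reads in Con, 30 and 20 in Step1, then 18 and 36 in Step2, and its log2 fold change of Step1 against Con was −0.82 ± 0.34 (adjusted p = 0.623). Camkk1 held 18 and 28, 32 and 16, and 13 and 31 reads, so its groups overlapped throughout.

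A list of other kinase genes, those of protein kinase C, protein kinase D and the cGMP-dependent kinases, was also compared. All 13 listed were tested. One was called. Prkce, which encodes protein kinase C epsilon, held 479 and 493 reads in Con, 437 and 355 in Step1, then 206 and 245 in Step2. It fell in Step2 against Con by 0.50 on the log2 scale, with an SE of 0.11 (adjusted p = 0.0250, limma). The call was lost without Con replicate 2 (adjusted p = 0.156, limma), without Step2 replicate 1 (0.859) and without Step2 replicate 2 (0.248). It was also lost under median of ratios scaling (0.0823), without a count minimum (0.0890), in sequencing run 1 alone (0.627) and without ends preceded by CCT (0.200). Over all its alternatives that p ran from 0.00172 to 0.859, and the log2 fold change stayed negative, from −0.65 to −0.36. Prkch, of the eta isoform, had a log2 fold change of 0.08 ± 0.16 in the same comparison. Whether Prkce differed from the CaM kinase genes was not tested.

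The genes whose log2 CPM followed Camk2a most closely over the 6 libraries were Arhgap23, a GTPase-activating protein, Nup205, a nuclear pore component, and Lmcd1, a LIM domain protein. Their Pearson correlations with Camk2a were 0.988, 0.987 and 0.985 over 6 libraries, the highest of 3728 genes compared. Values picked as the highest of so many over 6 points describe a pattern only, and a link to Camk2a was not tested. Arhgap23 held 66 and 67 reads in Con, 65 and 64 in Step1, then 37 and 33 in Step2. Nup205 held 64 and 64, 59 and 60, and 31 and 25. These genes lie on chromosomes 11 and 6, and all values share the libraries and their depths.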

How the data were processed

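BLISS reads of 6 libraries were analysed. Per the labels, the submitters removed PCR duplicates by molecular identifier, mapped to mm10 using Bowtie2 and converted the alignments by SAMtools and bedtools (versions not given in the sources used here). The deposited files hold 1 aligned read per line, and their only measured column is the aligner's mapping quality score, from 11 to 42. The files hold no counts, so reads were counted here at their 5′ ends, in gene bodies (GENCODE vM21), in the 10 kb before and within 1 kb of gene starts. Scaling used reads of chromosomes 1 to 19 and X, leaving out 26 piled-up windows of 10 kb (over 20 times the median window), none within 10 kb of a member; CPM is relative to that total. Genes or windows reaching 10 reads in 2 or more libraries entered a two-sided voom fit in limma 3.58.1 (R 4.3.3) with group means only; p-values were adjusted by Benjamini-Hochberg across all genes, or all windows. Log2 fold changes carry limma's standard error or 95% interval. A word of 32 bases occurred once if no other copy lay on either strand. Wilson intervals and the limit from a count of 0 (3 counts) cover counting error only. The procedure was also run on simulated counts, whose outcome is not given here and lends the results no support. Members and lists were chosen with earlier results of these data known. Named genes are the members, any gene called in a list, its 3 (calmodulin) or 2 (protein kinase C) densest genes, and the 3 genes most correlated with Camk2a among those with a mean of at least 50 reads. Same-numbered replicates did not deviate together (r = 0.0327, 0.005 and −0.0051 over 13811 genes). Counting noise at this depth could also bring r near 0, so the check cannot exclude a shared batch. No pairing was used in the main fit, and fits with a replicate block are given below. Python 3.11.15, pandas 2.3.3 and matplotlib 3.10.9 were used.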

Additional observations from a re-analysis of the deposited data

How the results depend on the processing

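No member was called in any of 456 fits of gene bodies over 19 settings (lowest adjusted p 0.478, limma) or in any of 237 fits of upstream windows over 17 settings (lowest 0.573). What changed was how many other genes passed, and the size and sign of member values that were not called, most of all between the sequencing runs; the causes were not tested beyond what each setting itself changes. Below, values come in the order Step1 against Con, Step2 against Con and Step2 against Step1, and log2 fold changes are signed that way.

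Without ends preceded by CCT (chosen after seeing the data) 4, 5 and 4 genes were called, against 17, 13 and 6. Without a count minimum the counts were 10, 5 and 3 genes, and 2 upstream windows for Step2 against Con. With median of ratios scaling 9 genes passed for Step1 against Con and 3 windows for Step2 against Con. The 2-group fits gave 9 genes for Step1 against Con, with 10 genes and 6 windows for Step2 against Step1. Without the first 1 kb of each gene 26 and 27 genes passed against Con. A mapping quality of at least 30 gave 2 genes for Step2 against Step1 and 2 windows for Step2 against Con, and removal of the GC trend gave 3 genes for Step2 against Step1. Sequencing run 1 alone gave 4 and 3 genes and 0 and 1 windows against Con (9115 genes and 665 windows tested), and run 2 alone 1, 2 and 2 windows. With 1 read per position 1, 0 and 5 windows passed. A replicate block called 38, 43 and 11 genes and 11, 37 and 5 windows, with no member among them; same-numbered libraries share only a number, and with the block the Camk2a upstream value in Step1 against Con was −0.02.

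Leaving out 1 library moved the counts to between 2 and 148, 1 and 106, and 2 and 8 genes, and to between 0 and 171, 1 and 112, and 1 and 8 windows. The highest counts against Con, 148 and 106 genes, came without Con replicate 1. The lone library of a group is there assumed to vary like the other groups.

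Signs of uncalled member values also turned. Median of ratios scaling left 3 of 8 members lower in Step2 against Con, not 5, with Camk2d at 0.00 and Camk4 at 0.02, and 49.1% of all genes lower, not 54.0%; Camk2d was 0.01 in Step2 against Step1. With 1 read per position Camk2d was 0.04 and 0.02 against Con, Camkk2 0.03 in Step2 against Step1 and the Camk2a upstream window −0.07 in Step1 against Con. Sequencing run 1 alone gave Camk2b 0.08, Camk2g 0.45 (from −0.31), Camk1d 0.01 and the Camk2a upstream window −0.07 in Step1 against Con, Camk2g 0.37 in Step2 against Con, and Camk2g −0.08 and Camk4 −0.11 in Step2 against Step1. Run 2 alone gave Camk2a 0.35 and Camk2d 0.08 in Step1 against Con, Camk2d 0.12 and Camk4 0.07 in Step2 against Con, and Camk2d 0.04 and Camk1d 0.06 in Step2 against Step1. Without the most used position of each member (chosen after seeing the data) Camk2a was 0.05 and Camk2d 0.01 in Step1 against Con, Camk2d 0.01 in Step2 against Con and Camk4 0.00 in Step2 against Step1. Without CCT ends Camk2g was −0.10 and Camk1d 0.06 in Step2 against Step1. A mapping quality of at least 30 gave Camk1d 0.01 in Step2 against Step1 and the Camk2a upstream window 0.00 in Step1 against Con, and removal of the GC trend gave Camk2d 0.00 in Step2 against Step1. Leaving out 1 library, Camk2b ran from −0.45 to 0.08, −0.22 to 0.41 and −0.04 to 0.59, Camk2d from −0.19 to 0.11, −0.19 to 0.10 and −0.08 to 0.07, and Camk4 from −0.25 to 0.07, −0.23 to 0.16 and −0.14 to 0.25. Camk2a ran from −0.23 to 0.10 in Step1 against Con, Camk1d from −0.05 to 0.01 in Step2 against Step1, and the Camk2a upstream window from −0.48 to 0.51 and −0.18 to 0.81 against Con.

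Camk2a in Step2 against Con and against Step1, Camk1d in Step2 against Con and Camkk2 against Con kept their direction in every setting run. So did Camkmt in every comparison and the Camk2a upstream window in Step2 against Step1. The difference in the share of reads in all 8 genes together turned from 0.00115 to −0.00257 percentage points in Step2 against Step1 in run 1 alone, where the groups did not overlap (exact permutation p = 0.333, the smallest possible), and to 0.00078 in Step2 against Con in run 2 alone. Depth limits what could be seen: Camk2a, Camk2g and Camkk2 held 207 to 311 reads each over 6 libraries, and their standard errors were 0.23 to 0.33 on the log2 scale.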
